A study of Mus musculus with 2 samples.

Results

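ON bipolar mGluR6 signalling genes are 10 genes whose products carry the light response of ON bipolar cells, Grm6, Trpm1, Gnao1, Gnb3, Gng13, Gpr179, Nyx, Rgs7, Rgs11 and Lrit3. They were chosen by name, and all 10 were among the 25778 genes of the count table. The table came from single-cell RNA-seq of mouse retina at 30 days of age, with 1 library per genotype. Ptbp1-Ctrl carried the Chx10-Cre transgene alone, and Ptbp1-KO carried Chx10-Cre with Ptbp1lox/lox, an allele whose loxP sites flank the promoter and the first exon of Ptbp1, which encodes an RNA-binding splicing repressor. Chx10-Cre is a Cre-GFP fusion active in retinal progenitors, so both libraries came from retinas with Cre, and deletion would reach all the neurons and the Müller glia derived from those progenitors. The question addressed here is where these genes were expressed in both retinas and how their levels compared between the libraries.

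Photoreceptors release glutamate in the dark. ON bipolar cells read that glutamate with the metabotropic receptor mGluR6, which through the G protein Go keeps the cation channel TRPM1 closed. Light lowers the glutamate release and lets the channel open. OFF bipolar cells use ionotropic glutamate receptors instead. Loss of function of several of these genes is a known cause of congenital stationary night blindness.

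The libraries held 16421 cells and 32758836 unique molecular identifiers (UMIs, each a counted mRNA molecule) for Ptbp1-Ctrl, and 14522 cells and 35328593 UMIs for Ptbp1-KO. Ptbp1-KO cells were deeper, with a median of 1740 UMIs per cell against 1442, and 63 cell barcodes occurred in both libraries. The study's methods give 1 female mouse per genotype, whereas both libraries held many UMIs of the Y-linked genes Ddx3y (2891 and 3481), Eif2s3y (5807 and 6983) and Uty (6164 and 7085) and only 5 and 6 UMIs of Xist. Ptbp1 gave 147 UMIs in ON bipolar cells of Ptbp1-Ctrl and 1 UMI in those of Ptbp1-KO (log2 ratio −7.33, interval −12.65 to −4.83). The 3′ reads of Ptbp1 lie outside the floxed part, so this count follows transcription from the promoter and not the deleted sequence itself.

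The authors' annotation named 5743 bipolar cells in 10 clusters, and ON and OFF cells were separated by cluster without using any of the 10 genes. A cluster was taken as ON where the level of Isl1, a transcription factor of ON bipolar cells, was above that of Grik1, a kainate receptor subunit of OFF cells. ON clusters with more Prkca and Car8 than Scgn were called rod bipolar-like. This gave 1133 and 1001 rod bipolar-like cells (clusters 5 and 10), 1341 and 1010 ON cone bipolar-like cells (clusters 11, 12, 13, 19 and 20) and 602 and 457 OFF bipolar-like cells (clusters 9 and 18), for Ptbp1-Ctrl and Ptbp1-KO in that order. Pairs of values keep this order of libraries from here on. Cluster 10 was led by haemoglobin genes. Cluster 21, with 118 and 81 cells, was led by 6 cone marker genes and was kept apart from both ON and OFF cells. Summed over 4 OFF markers that the sorting did not use (Fezf2, Tacr3, Neto1 and Irx6), expression was 14.7 and 10.8 CPM (UMIs per 1000000 UMIs of the class) in ON cells and 1033 and 1129 CPM in OFF cells.

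All levels below are in CPM. With 1 library per genotype there was no replicate and no test. Intervals are exact 95% intervals, except that those of thinned shares are approximate. They cover counting error only and not the spread between mice. The authors' clusters were computed from the expression of all cells, so contrasts between bipolar clusters are a description.

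The genes are first shown by a stretch of regulatory sequence, because the homeodomain factors of photoreceptors and bipolar cells, such as Crx and Otx2, bind motifs built on TAATC. RefSeq promoter windows (GRCm38.p6, 250 bases before to 50 bases after the start) were at hand for 8 of the 10 genes. These genes had 10 windows, since Trpm1 and Gng13 had a pair each. TAATC on either strand was found in 4 of the 10 windows, belonging to Grm6, Lrit3 and Trpm1, whose windows both held it, and in 22.0% of 32851 promoter windows of the genome. The longer TAATCC, which contains it, was found in 1 of the 10, the upstream Trpm1 window, and in 7.06% of all windows. The windows of Grm6 and Lrit3 and the upstream window of Trpm1 are printed below because they belong to the receptor, its channel and the photoreceptor member of the group, in the direction of the gene and with TAATC, or its complement GATTA, in capitals. The Grm6 window lies at chr11:50850435-50850734 on the plus strand, the upstream Trpm1 window at chr7:64153585-64153884 on the plus strand and the Lrit3 window at chr3:129804087-129804386 on the minus strand.
Grm6: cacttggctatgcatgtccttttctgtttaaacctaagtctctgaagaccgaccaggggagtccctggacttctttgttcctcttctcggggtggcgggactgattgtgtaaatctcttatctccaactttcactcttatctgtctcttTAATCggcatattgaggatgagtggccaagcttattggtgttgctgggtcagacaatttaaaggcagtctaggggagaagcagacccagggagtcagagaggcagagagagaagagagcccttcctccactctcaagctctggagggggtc
Trpm1: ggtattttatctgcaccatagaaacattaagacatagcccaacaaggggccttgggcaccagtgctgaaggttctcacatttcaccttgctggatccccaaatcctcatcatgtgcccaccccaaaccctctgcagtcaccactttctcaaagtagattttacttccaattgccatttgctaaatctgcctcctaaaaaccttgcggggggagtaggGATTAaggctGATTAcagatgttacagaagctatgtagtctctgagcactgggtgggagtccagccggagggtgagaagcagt
Lrit3: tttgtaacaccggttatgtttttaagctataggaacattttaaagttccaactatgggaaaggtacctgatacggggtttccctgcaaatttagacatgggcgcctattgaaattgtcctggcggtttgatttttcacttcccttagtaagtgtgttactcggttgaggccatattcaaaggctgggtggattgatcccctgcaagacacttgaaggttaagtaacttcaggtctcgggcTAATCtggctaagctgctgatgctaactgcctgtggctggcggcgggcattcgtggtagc
The motif began 101 bases before the start in Grm6 and 10 bases before it in Lrit3, and the upstream Trpm1 window held it at 33 and at 23 bases before the start. The downstream Trpm1 window (chr7:64185209-64185508), not printed, held it 157 bases before its start. A match of letters is no evidence that a factor binds there.

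Grm6, Trpm1, Gnao1, Rgs7, Gpr179, Gng13 and Nyx stood higher in ON bipolar cells than in the other cell classes, Gnb3 was higher still in cones, and Lrit3 was highest in cones. OFF cells nonetheless held counts of each. The ON markers Isl1, Strip2 and Pcp2 summed to 619 and 611 CPM in OFF cells, against 3854 and 3970 CPM in ON cells. Pcp2 stood at 615 and 598 CPM in OFF cluster 9 and at 123 and 141 CPM in OFF cluster 18. The part of ON cells or their RNA in the OFF levels was not tested. The OFF share was smallest for Grm6, at 24.0% and 20.2% of the ON level, and reached 43.5% and 40.5% for Gng13. For Nyx it was 26.7% in Ptbp1-Ctrl and 57.8% in Ptbp1-KO, and for Rgs11 88.8% and 70.4%. Across the group, the median log2 ratio of ON over OFF was 1.77 in Ptbp1-Ctrl and 1.67 in Ptbp1-KO.

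**Figure D1:**
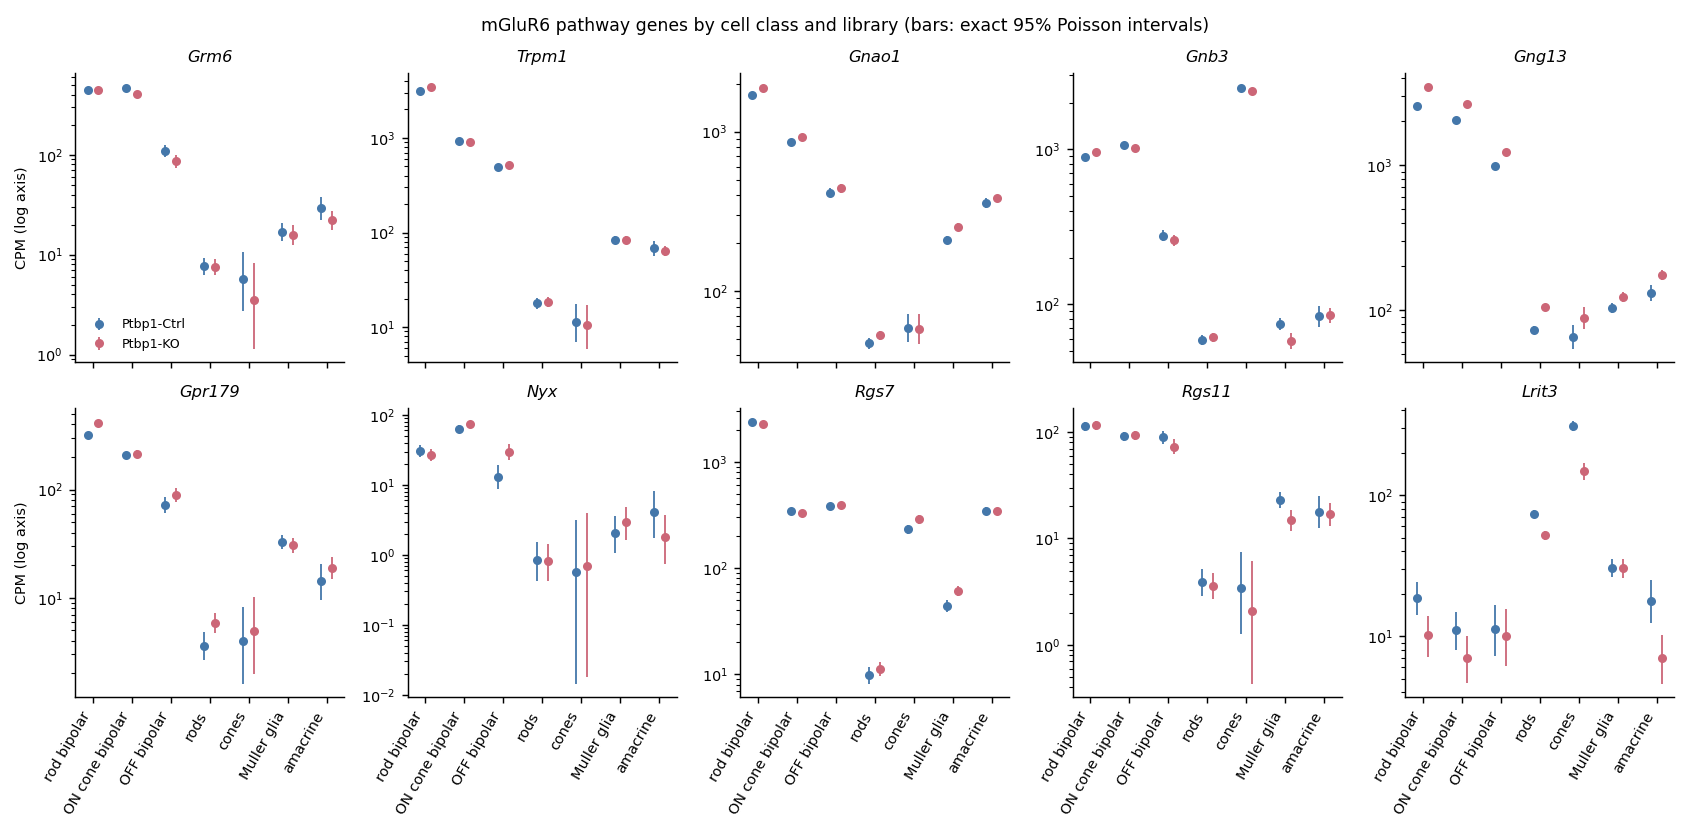
Levels of the 10 genes in CPM (log axis) in 7 cell classes, with blue points for Ptbp1-Ctrl, red points for Ptbp1-KO and bars for exact 95% Poisson intervals. Grm6 stood at 456 and 428 CPM in ON bipolar cells against 7.67 and 7.59 CPM in rods, whereas Lrit3 was highest in cones.

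Grm6 encodes the receptor itself (chr11:50850685-50866208, plus strand, mm10). Its level in ON bipolar cells was 456 CPM (interval 440 to 472, 3184 UMIs) in Ptbp1-Ctrl and 428 CPM (414 to 443, 3283 UMIs) in Ptbp1-KO, and in OFF cells 109 and 86.6 CPM. ON cells were therefore above OFF cells by log2 2.06 (1.87 to 2.26) and 2.31 (2.08 to 2.53), with no overlap of the counting intervals in either library. The OFF level came almost wholly from cluster 9, which held 146 and 116 CPM, while cluster 18, the cluster with the highest Grik1 (10235 and 10232 CPM), held 16.6 and 18.5 CPM. That level in cluster 18 was near the 16.9 and 15.9 CPM seen in Müller glia. At an equal depth of 1000 UMIs per cell, 36.4% and 34.5% of ON bipolar cells were expected to show a Grm6 UMI, against 0.851% and 0.647% of rods, which do not use the receptor and whose median depths were 1088 and 1288 UMIs. Without thinning, ON cells had median depths of 2660.5 and 3719 UMIs.

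Rod bipolar-like and ON cone bipolar-like cells held similar amounts of Grm6, 447 and 448 CPM against 463 and 410 CPM. Within the ON cone group the receptor varied more, from 241 and 213 CPM in cluster 13 to 735 and 763 CPM in cluster 11. The order of clusters 13, 12 and 11 was the same in both libraries, and their intervals did not overlap.

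Trpm1 encodes the cation channel at the end of the cascade (chr7:64153835-64269775, plus strand). ON bipolar cells held 1920 and 2118 CPM and OFF cells 498 and 519 CPM, a log2 ratio of 1.95 and 2.03. Unlike the receptor, the channel differed strongly between rod bipolar-like cells, at 3161 and 3437 CPM, and ON cone bipolar-like cells, at 934 and 914 CPM. That step was log2 1.76 (1.70 to 1.81) in Ptbp1-Ctrl and 1.91 (1.86 to 1.96) in Ptbp1-KO. Cluster 13 was the extreme, with 145 and 163 CPM of Trpm1 while its Grm6 was still 241 and 213 CPM. Its Trpm1 level was close to the 131 and 163 CPM of OFF cluster 18. The highest ON cluster exceeded cluster 13 by 21.7-fold in Ptbp1-Ctrl and 22.1-fold in Ptbp1-KO. Thinned to 1000 UMIs, 92.3% and 93.1% of rod bipolar-like cells and 1.46% and 1.75% of rods had a Trpm1 UMI.

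**Figure D2:**
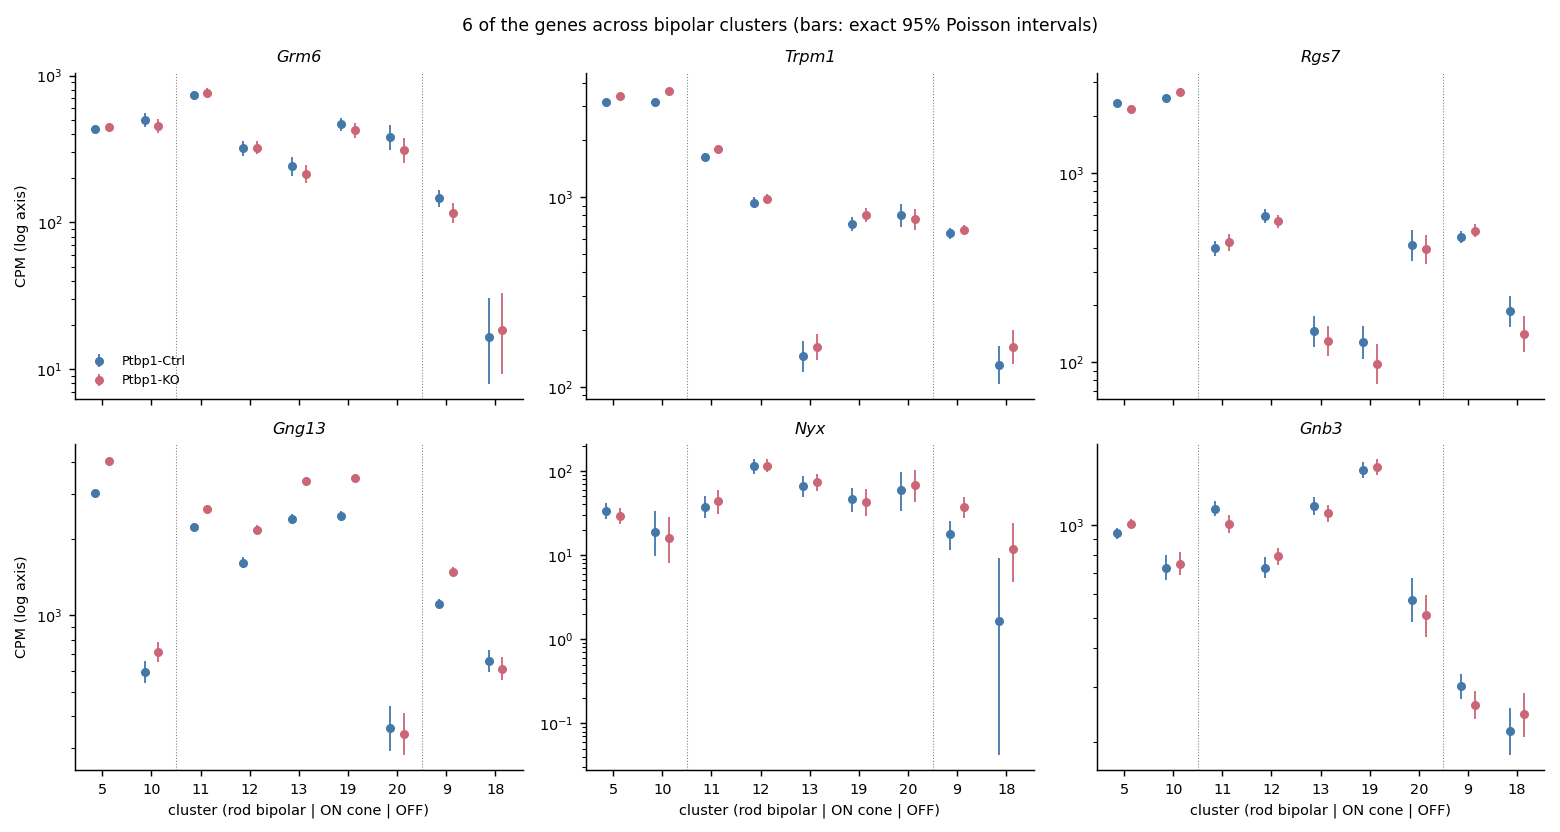
Levels of 6 of the genes in CPM (log axis) in the bipolar clusters, ordered as rod bipolar-like (5, 10), ON cone bipolar-like (11, 12, 13, 19, 20) and OFF bipolar-like (9, 18), with bars for exact 95% Poisson intervals. Trpm1 and Rgs7 were highest in clusters 5 and 10, Nyx in cluster 12, and Gng13 was low in clusters 10 and 20 of both libraries.

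Gnao1, Gnb3 and Gng13 encode the α, β and γ subunits of the Go protein that links receptor and channel. Gnao1 (chr8:93809966-93969388, plus strand) stood at 1229 and 1374 CPM in ON cells and 413 and 440 CPM in OFF cells. It was about as high in amacrine cells, at 355 and 382 CPM, as in OFF cells, and Müller glia held 210 and 253 CPM. Rod bipolar-like cells held more Gnao1 than ON cone bipolar-like cells, by log2 0.96 and 1.03.

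Gnb3 (chr6:124834240-124840275, minus strand) also serves cone phototransduction. It reached 995 and 990 CPM in ON cells, 278 and 258 CPM in OFF cells and 2475 and 2393 CPM in cones, which was 249% and 242% of the ON level. Rods held 59.1 and 61.1 CPM, so cones exceeded rods by log2 5.39 and 5.29. Cluster 21, the bipolar cluster led by cone genes, held 1637 and 1595 CPM. Among ON clusters Gnb3 was highest in cluster 19 (1500 and 1532 CPM) and lowest in cluster 20 (574 and 510 CPM).

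Gng13 (chr17:25717171-25719406, plus strand) stood at 2254 and 3009 CPM in ON cells and 980 and 1220 CPM in OFF cells, and its step from OFF to ON, log2 1.20 and 1.30, was shallower than those of Grm6 or Trpm1. At 1000 UMIs per cell, 77.2% and 79.2% of ON cells had a Gng13 UMI, against 5.91% and 9.08% of rods. Clusters 10 and 20 went against the rest of the ON clusters. Cluster 10 held 597 and 716 CPM while the other rod bipolar-like cluster held 3029 and 4044 CPM, and cluster 20 held 359 and 341 CPM while the other 4 ON cone clusters held 1611 to 2464 CPM in Ptbp1-Ctrl and 2172 to 3468 CPM in Ptbp1-KO. Some other genes were low in cluster 10 too, and some were not. Trpm1 was not, at 3154 and 3601 CPM against 3163 and 3400 CPM in cluster 5. Rgs7 was not low either, at 2496 and 2678 CPM in cluster 10. Gnao1 was lower, at 1076 and 1160 CPM against 1845 and 2040 CPM in cluster 5. So was Gnb3, at 728 and 750 CPM against 938 and 1009 CPM. The ON marker Pcp2 was also lower, at 1929 and 1817 CPM against 5862 and 5795 CPM. In cluster 20, Gnb3 was at its lowest among ON clusters, while Trpm1, at 800 and 763 CPM, was above cluster 13. Clusters 10 and 20 were also the shallowest ON clusters, with medians of 1529 and 1858 and of 1579 and 1891 UMIs per cell, and the part of depth in the Gng13 difference was not tested.

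Rgs7 and Rgs11 encode the GTPase-activating proteins that end the G protein signal, and Gpr179 the orphan receptor that anchors them at the dendritic tip. Rgs7 (chr1:175059087-175492500, minus strand) was the gene that most separated rod bipolar-like from ON cone bipolar-like cells, at 2368 and 2269 CPM against 341 and 332 CPM, or log2 2.80 (2.71 to 2.88) and 2.77 (2.69 to 2.86). ON cone bipolar-like cells were thereby no higher than OFF cells, which held 381 and 389 CPM. Amacrine cells held 346 and 342 CPM and cones 233 and 289 CPM, while rods held only 9.82 and 11.3 CPM. The few horizontal cells, 17 and 7 in number, gave 57 and 24 UMIs, or 515 and 560 CPM.

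Rgs11 (chr17:26202951-26211324, plus strand) stood at 101 and 104 CPM in ON cells and 89.6 and 73.1 CPM in OFF cells. The log2 ratio of 0.17 in Ptbp1-Ctrl had an interval that included 0 (−0.06 to 0.41), and that of 0.51 in Ptbp1-KO did not (0.25 to 0.77). OFF cluster 9, at 107 and 92.7 CPM, was as high as the ON cells, whereas OFF cluster 18 held 44.7 and 26.9 CPM. Within ON cells Rgs11 ran from 37.6 and 33.8 CPM in cluster 12 to 129 and 144 CPM in cluster 11.

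Gpr179 (chr11:97332109-97352077, minus strand) stood at 259 and 307 CPM in ON cells and 72.2 and 88.6 CPM in OFF cells, a log2 ratio of 1.84 and 1.79. OFF cluster 18 held 10 and 3 UMIs, or 16.6 and 5.04 CPM. Gpr179 was also the gene whose level most closely followed that of Grm6 over the 10 bipolar clusters. Its Pearson r of 0.957 on log2 levels averaged over both libraries ranked 1 among 9757 genes with at least 200 UMIs, and the next 5 were Robo2 (0.955), Isl1 (0.953), Sybu (0.949), Spred3 (0.948) and Grm5 (0.944). Isl1 had served to sort the clusters. Among the other members Gnao1 ranked 33 (r 0.851), Trpm1 115, Rgs11 175, Nyx 185, Gnb3 486, Gng13 1130, Rgs7 1135 and Lrit3 5862 (r −0.17). These 10 points share libraries and cell sorting, and the ranks are a description.

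Nyx and Lrit3 encode leucine-rich repeat proteins that help place TRPM1 and mGluR6 at the synapse. Nyx (chrX:13466110-13489313, plus strand) was the sparsest of the ON genes in counts, with 344 and 392 UMIs in ON cells, or 49.2 and 51.1 CPM. It ran against Trpm1 and Rgs7 in being lower in rod bipolar-like cells, at 30.7 and 26.8 CPM, than in ON cone bipolar-like cells, at 64.0 and 73.3 CPM, by log2 −1.06 (−1.42 to −0.71) and −1.45 (−1.80 to −1.12). Cluster 12 held the highest level, 114 and 116 CPM. OFF cells held 28 and 59 UMIs, or 13.1 and 29.5 CPM. At 1000 UMIs per cell, 4.80% and 4.56% of ON cells had a Nyx UMI, against 0.0732% and 0.0678% of rods.

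Lrit3 (chr3:129787881-129804030, minus strand) was highest in cones. Cones held 309 and 148 CPM (539 and 211 UMIs), rods 73.5 and 51.8 CPM (958 and 751 UMIs) and ON bipolar cells 14.5 and 8.48 CPM (101 and 65 UMIs). Rods were above ON cells by log2 2.35 (2.05 to 2.66) and 2.61 (2.25 to 3.0), and cones were above rods by log2 2.07 (1.92 to 2.23) and 1.51 (1.29 to 1.74). ON and OFF cells could not be told apart at this depth, with OFF cells at 11.3 and 10.0 CPM and ratios of 0.36 (−0.29 to 1.07) and −0.24 (−0.98 to 0.56).

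The small Lrit3 level in ON cells can be read beside genes that mark rods. In ON cells 4 rod marker genes, Gnat1, Pde6b, Sag and Nrl, stood at 16.6% to 17.3% of their rod level in Ptbp1-Ctrl and at 14.8% to 16.2% in Ptbp1-KO. Lrit3 in ON cells stood at 19.7% (15.9% to 24.2%) and 16.4% (12.5% to 21.1%) of its rod level, and both intervals reach the range of the rod markers. Cone markers were present in ON cells too, with a sum over 5 genes of 302 and 307 CPM against 24988 and 25622 CPM in cones. Cluster 10, where the cone gene Arr3 stood at 570 and 537 CPM, held 29 and 13 of the Lrit3 UMIs, or 45.7 and 18.9 CPM, against 11.8 and 8.08 CPM in cluster 5. The part of rod and cone RNA in the Lrit3 level of ON cells was not tested. In Müller glia the values stood further apart, with Lrit3 at 41.5% (35.2% to 48.7%) and 58.4% (48.8% to 69.6%) of the rod level while the rod markers stood at 14.9% to 16.6% and 12.1% to 15.3% there. Relatives of Lrit3 were distributed differently. In ON cells Lrit1 stood at 77.8% and 89.3% and Lrit2 at 56.4% and 56.9% of their rod levels. In Müller glia Lrit1 stood at 20.5% and 18.9% and Lrit2 at 17.1% and 13.8%.

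**Figure D3:**
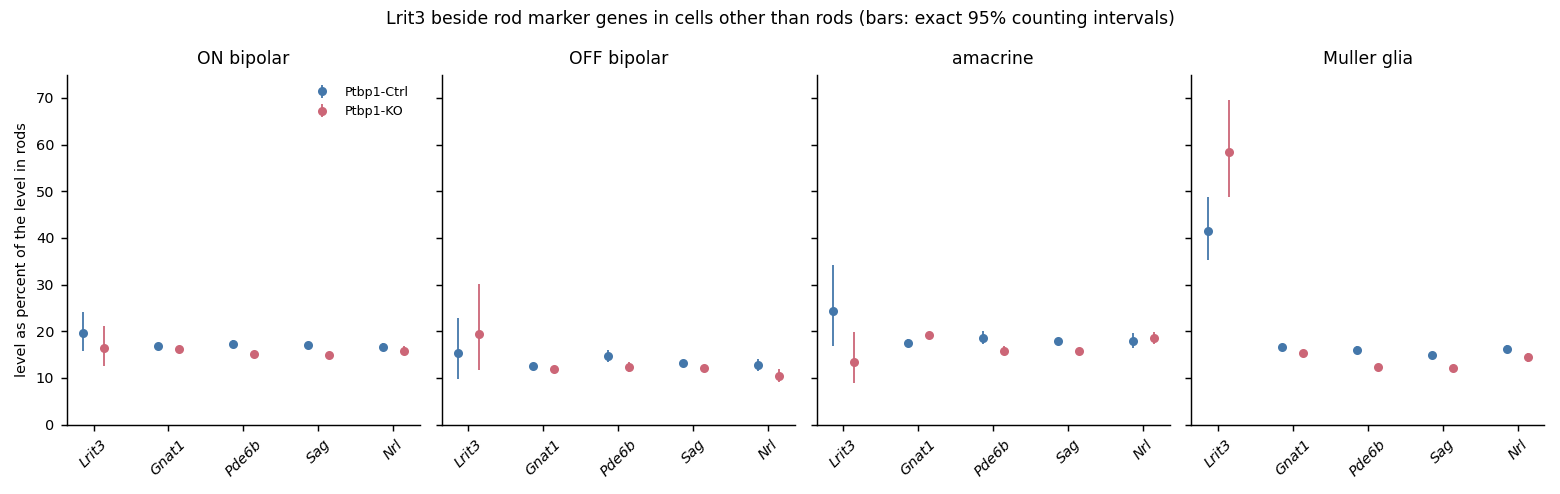
Level of Lrit3 and of 4 rod marker genes in ON bipolar, OFF bipolar and amacrine cells and in Müller glia, as a percent of the level of the same gene in rods of the same library, with bars for exact 95% counting intervals. In ON bipolar cells the intervals of Lrit3 reach those of the rod markers, and in Müller glia Lrit3 lies above them at 41.5% and 58.4%.

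Several of the genes could be seen in single ON cells. At 1000 UMIs the median ON bipolar cell had a UMI of 4 of the 10 genes in both libraries, the median rod bipolar-like cell of 5, the median ON cone bipolar-like cell of 3 and the median rod or Müller glial cell of 0. At least 3 of the 10 were seen in 83.1% and 83.7% of ON cells, in 23.4% and 22.6% of OFF cells, in 2.45% and 2.21% of Müller glia and in 0.156% and 0.233% of rods, as the mean of 20 random draws. Without thinning the shares in ON cells were 94.6% and 97.1%, and those in rods 0.398% and 0.796%. Thinning left out 102 and 33 of the ON cells and 4155 and 3126 of the rods.

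Between genotypes, most of the cascade in ON bipolar cells stood at close to the same level. All 10 genes had at least 50 UMIs over both libraries, and a gene was counted as past the fold where the libraries differed by a log2 ratio of at least 0.32 in either direction. Gng13 was past it upward in Ptbp1-KO, where 11.0% of 12239 genes were past it upward, and Lrit3 was past it downward, where 7.52% of all genes were. A count of 1 of 10 genes in each direction lies near these background shares. The median log2 ratio of Ptbp1-KO over Ptbp1-Ctrl was 0.048 for the 10 genes and 0.014 for all genes tested.

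**Figure D4:**
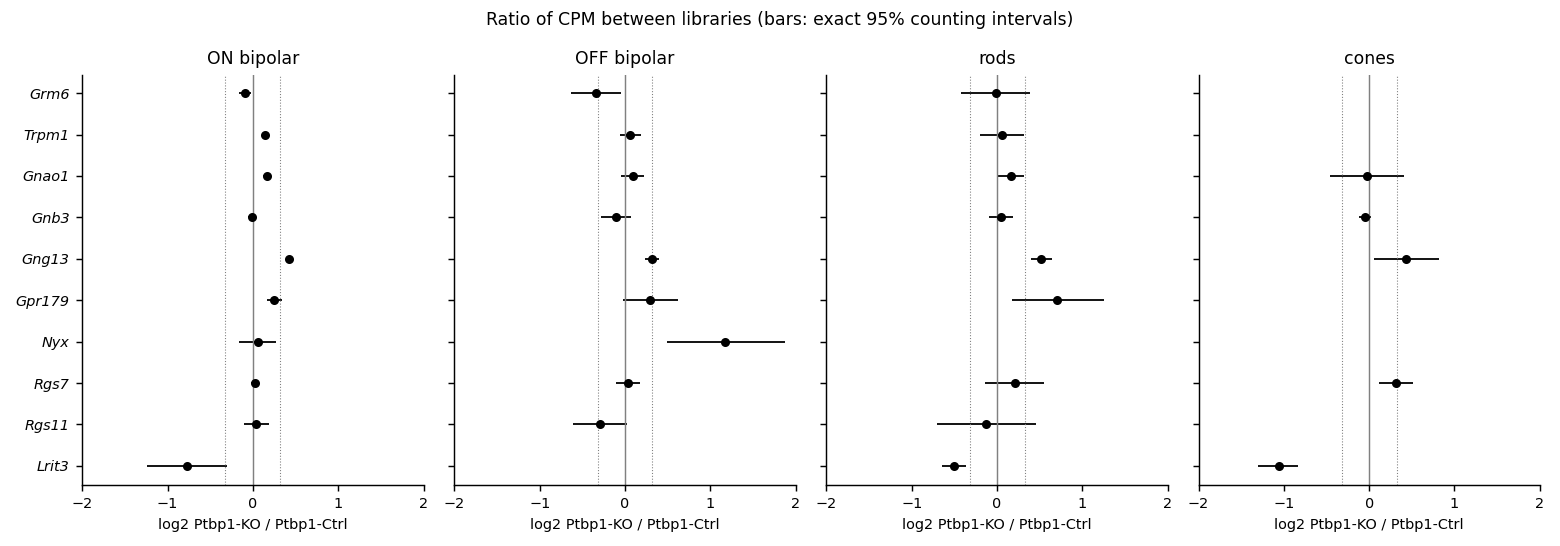
Log2 ratio of CPM, Ptbp1-KO over Ptbp1-Ctrl, in 4 cell classes for genes with at least 50 UMIs over both libraries, with exact 95% counting intervals. Dotted lines mark the log2 ratio of 0.32 in either direction, and Gng13 lies above 0 in ON bipolar cells, rods and cones while Lrit3 lies below 0 in the same classes.

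The other 8 genes stayed within the fold in ON cells. Gpr179 had the largest of their ratios, log2 0.25 (0.16 to 0.34), followed by Gnao1 at 0.16 (0.12 to 0.20) and Trpm1 at 0.14 (0.11 to 0.17). Grm6 was at −0.09 (−0.16 to −0.02). Nyx at 0.05, Rgs11 at 0.04, Rgs7 at 0.02 and Gnb3 at −0.01 had intervals that included 0. For Gpr179 the difference was in rod bipolar-like cells, at 0.35 (0.23 to 0.47), with 0.04 (−0.10 to 0.18) in ON cone bipolar-like cells, and the difference between these ratios was not tested.

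Gng13 in ON cells gave 15752 UMIs, or 2254 CPM, in Ptbp1-Ctrl and 23078 UMIs, or 3009 CPM, in Ptbp1-KO. The log2 ratio was 0.42 (0.39 to 0.45), and 821 of the 12239 genes had a higher ratio. It was 0.43 in rod bipolar-like and 0.37 in ON cone bipolar-like cells, and the interval lay above 0 in 6 of the 7 ON clusters, the exception being cluster 20 at −0.07 (−0.48 to 0.33). The gene was also higher in Ptbp1-KO in cells that hold little of it. Rods went from 72.6 to 104 CPM (log2 0.52, 0.40 to 0.64), cones from 65.3 to 88.4 CPM (0.44, 0.06 to 0.81), amacrine cells from 131 to 174 CPM (0.40, 0.19 to 0.62) and Müller glia from 103 to 124 CPM (0.26, 0.09 to 0.42). As a share of the ON level, Gng13 stood at 3.22% and 3.46% in rods and at 2.90% and 2.94% in cones. The shares were 5.83% and 5.77% in amacrine cells and 4.58% and 4.10% in Müller glia. The part of RNA from ON cells in these levels was not tested. OFF cluster 18 was not higher, at 658 and 615 CPM. The share of ON cells with a Gng13 UMI at 1000 UMIs was 77.2% (75.4% to 78.8%) against 79.2% (77.3% to 80.9%), with overlapping intervals. At 700 UMIs, where no ON cell was left out, it was 67.5% (65.6% to 69.3%) against 72.2% (70.1% to 74.1%), and the intervals did not overlap. Whether the intervals overlapped thus depended on the depth chosen. Gng13 overlaps Chtf18 on the other strand, to which 251 UMIs were assigned in ON cells.

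Lrit3 was lower in Ptbp1-KO where it was best measured. Cones of Ptbp1-Ctrl held 309 CPM (283 to 336) and cones of Ptbp1-KO 148 CPM (129 to 169). The log2 ratio was −1.06 (−1.30 to −0.83), and 30 of 7968 genes tested in cones had a lower ratio. The share of cones with an Lrit3 UMI at 1000 UMIs was 26.4% (22.8% to 30.1%) in Ptbp1-Ctrl and 13.6% (10.5% to 17.3%) in Ptbp1-KO, and the intervals do not overlap. In rods the ratio was −0.50 (−0.64 to −0.36), and the share of rods with a UMI was 6.72% and 4.91%. Cluster 21 followed the cones, with 117 and 57.7 CPM (−1.02, −1.65 to −0.41). In ON cells the ratio was −0.77 (−1.24 to −0.31), beside a sum over the 4 rod markers of 3450 and 3019 CPM and a rod Lrit3 level that was itself lower. Müller glia did not show the difference, at 30.5 and 30.3 CPM (−0.01, −0.33 to 0.31). Lrit3 lies 378 bases from Rrh on the same strand, and Rrh gave 58 UMIs in rods and cones together.

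In rods, 9 of the 10 genes had at least 50 UMIs, all but Nyx. Gng13 and Gpr179 were past the fold upward, where 19.9% of all genes were, and Lrit3 downward, where 4.70% were. Gpr179 in rods rested on 47 and 85 UMIs, or 3.61 and 5.86 CPM, below the 32.7 and 30.5 CPM of Müller glia. Its ratio in rods of 0.70 became 3.75 once 5% of free RNA was subtracted. In cones 5 genes had at least 50 UMIs, with Gng13 past the fold upward (14.4% of all genes) and Lrit3 downward (12.7%). Gng13 in cones fell inside the fold with cells thinned to 1000 UMIs and without the deepest 5% of cells, where its ratio was 0.28. Rgs7 in cones, at 0.31 (0.11 to 0.51), was just inside the fold, and Gnb3 in cones was at −0.05 (−0.11 to 0.02).

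In OFF cells 9 genes had at least 50 UMIs, all but Lrit3. Nyx was past the fold upward, from 28 to 59 UMIs (log2 1.17, 0.50 to 1.87), where 11.8% of all genes were. Most of these Nyx UMIs came from cluster 9, 27 and 52 of them. Grm6 was past the fold downward, at −0.34 (−0.63 to −0.05), where 10.9% of all genes were. Its ratio ran from −0.50 to −0.16 under scaling, depth, free RNA and cluster make-up alternatives, the last of these inside the fold, and single random draws of 1000 UMIs per cell gave −1.03 to 0.22. Gng13 in OFF cells, at 0.32 (0.23 to 0.40), lay just inside the fold.

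Other genes of the synapse were read from lists of partners. On the bipolar side 7 genes were measured in ON cells, namely Gnb5, which pairs with the RGS proteins, the RGS anchor Rgs9bp, Pcp2, Prkca, Tpbg, Cacna1s and Ric8b, and 0 of 7 were past the fold, against 11.0% of all genes upward and 7.52% downward, with a median log2 ratio of −0.12. Rgs9bp had the lowest ratio, at 98.0 and 79.8 CPM (−0.30, −0.46 to −0.14), and Gnb5 stood at 407 and 353 CPM (−0.21, −0.28 to −0.13). On the photoreceptor side, 9 of 10 genes had at least 50 UMIs in rods and 0 were past the fold, against 19.9% of all genes upward and 4.70% downward. In cones all 10 did and 2 were lower, where 12.7% of all genes were, Cacnb2, a calcium channel subunit, at 945 and 748 CPM (−0.34), and Lrit1, at 218 and 174 CPM (−0.32). The adhesion proteins Elfn1, which binds mGluR6 across the synapse, and Egflam, or pikachurin, were within the fold in cones, at −0.17 (−0.47 to 0.13) and 0.16 (0.00 to 0.32).

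The levels of close relatives of the members are given here as CPM pooled over both libraries. Of the other metabotropic receptors, Grm5 stood at 1178 in ON and 637 in OFF cells and Grm7 at 398 and 701, whereas Grm8 was highest in amacrine cells (1106) and rods (891). Trpm3 stood at 19.8 in ON cells, 800 in OFF cells and 3023 in Müller glia. Rgs9, the photoreceptor RGS protein, stood at 1082 in rods and 184 in ON cells, and Rgs6 at 1508 in Müller glia and 7.64 in ON cells. The transducin γ genes divided likewise, with Gngt1 at 7251 in rods and Gngt2 at 3709 in cones.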

How the data were processed

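Retinas of 1 mouse per genotype were dissociated with papain and captured with the 10x Genomics 3′ version 3.1 chemistry. Per the labels and the study's methods, the authors aligned reads to mm10 with Cell Ranger 7.0.1, filtered cells on genes, UMIs and mitochondrial share, and clustered and annotated them with Seurat 4. The deposited table holds raw UMI counts per gene and cell, beside a per-cell annotation with cell type, cluster, sample and a deposited percent of mitochondrial counts. That percent and 1 other per-cell column, 2 in all, were not used. Whether counting used strand is not given in the sources used here, so UMIs of genes that overlap on opposite strands may be mixed. No doublet caller was run here.

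Counts were summed by library and class or cluster and given as CPM, with exact Poisson intervals for levels, exact conditional binomial intervals for ratios and Clopper-Pearson intervals for shares (95%, counting error only). Shares of cells with a UMI are the expected shares after thinning each cell to 1000 UMIs without replacement, and counts of genes per cell are means over 20 random draws. These replaced a single random draw, after results were seen, because low counts moved with the draw. Intervals of thinned shares used the expected count rounded to a whole number of cells and are approximate. With 1 library per genotype no test was run. Genes with at least 50 UMIs over both libraries were compared, and a log2 ratio of 0.32 in either direction is called past the fold. The rule that sorts clusters into ON and OFF was set after the files were seen and uses no member. Genes named are the 10 members, their close relatives, fixed lists of synaptic partners, the genes most like Grm6 over bipolar clusters, Ptbp1 and sex-linked genes. Some genes of these lists are not reported here. The members and lists were chosen with earlier results of these data known. Gene positions came from GENCODE and promoter windows from RefSeq, both on GRCm38. Python 3.11.15, numpy 2.4.6, scipy 1.17.1 and pandas 2.3.3 were used, and TMM factors of class sums came from edgeR 4.0.16 in R 4.3.3. The interval code was tested on simulated data. Alternatives covered scaling, depth, free RNA, cluster make-up and thresholds.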

Additional observations from a re-analysis of the deposited data

Results flagged for a closer look

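For 4 genes the counting intervals of the ratio of Ptbp1-KO over Ptbp1-Ctrl lay on opposite sides of 0 in different cell classes. The differences between classes were not tested, since each class has 1 library per genotype.

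Trpm1 stood at 0.12 in rod bipolar-like cells and at −0.62 in the bipolar cluster led by cone genes, from 218 to 121 UMIs. Gnao1 had log2 ratios above 0 in rod bipolar-like cells (0.15), ON cone bipolar-like cells (0.086), the cluster led by cone genes (0.33), rods (0.16) and Müller glia (0.27) and below 0 in ganglion cells (−0.62, from 84 to 47 UMIs). Gnb3 stood at 0.10 in rod bipolar-like cells, at −0.078 in ON cone bipolar-like cells and at −0.36 in Müller glia. Rgs7 stood at 0.31 in cones and 0.47 in Müller glia, at −0.061 in rod bipolar-like cells and at −1.47 in ganglion cells, where it rested on 29 and 9 UMIs. The ganglion cells numbered 124 and 97, with median depths of 1144 and 1475 UMIs per cell.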

How the results depend on the processing

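No paired analysis was possible because each genotype has 1 library. The median log2 ratio of Ptbp1-KO over Ptbp1-Ctrl of the 10 genes in ON cells was set against a band. The band ran from the median lower limit to the median upper limit of the 10 genes' counting intervals, and is not an interval of the median itself. The median ratio stayed within it under TMM and median-of-ratios scaling, thinning to 1000 UMIs, removal of the deepest 5% of cells and subtraction of free RNA. It also stayed there with equal cluster make-up and with each ON cluster removed in turn. Under all of these, the genes past the fold (log2 0.32) were Gng13 and Lrit3. A fold of 1.5 left 1 gene, Lrit3 (5.56% of all genes were past it in either direction), and a minimum of 200 UMIs left 1, Gng13 (10.3% of all genes).

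The median log2 ratio of ON over OFF cells was 1.06 in Ptbp1-Ctrl and 1.09 in Ptbp1-KO with ON cone bipolar-like clusters alone. With rod bipolar-like clusters alone it was 1.99 in Ptbp1-KO, and with cells thinned to 1000 UMIs it was 1.96 in Ptbp1-Ctrl and 1.79 in Ptbp1-KO. The ratio of Lrit3 in rods over ON cells stayed within its interval under each alternative, rods without a UMI of bipolar markers included. Among the ratios past the fold in ON and OFF cells, rods and cones, Grm6 in OFF cells changed sign under single random draws of 1000 UMIs per cell, an alternative chosen after seeing the data, with −1.03 to 0.22 over 20 draws and 2 of them above 0. The others kept their sign under the alternatives run, and ratios in other classes were not recomputed. Lrit3 in cones ranged from −1.11 to −1.07, Gng13 in ON cells from 0.34 to 0.42 and in cones from 0.28 to 0.46, and Grm6 in OFF cells from −0.50 to −0.16 under the other alternatives. The counts leave the spread between mice unknown, and Nyx, with 23 UMIs in rods and 2 in cones, was too sparse there for a ratio.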
